A study of Mus musculus with 6 samples.

Results

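Bmp15 and 8 other genes of the bone morphogenetic protein (BMP) system were followed across neurons and other cells sorted from mouse dorsal root ganglia, where somatosensory neurons have their cell bodies. The 9 genes are the ligands Bmp15, Bmp2, Bmp4, Bmp5, Bmp6 and Bmp7 and the receptors Bmpr1a, Bmpr1b and Bmpr2, taken by symbol from the 23029 genes of the deposited table of RPKM values (reads per kilobase of gene, scaled to the size of the library). Bmp15 was chosen by its measured level, which was high in the C-LTMR libraries, so its values are given as a description without a test. The other 8 genes belong to the list by name.

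Cells of GINIP+/mcherry mice, which carry an mCherry reporter allele at the GINIP locus, were sorted by flow cytometry on GINIP and on binding of the lectin IB4. The C-LTMR subset (IB4-GINIP+) stands for C-fibre low-threshold mechanoreceptors, unmyelinated neurons that respond to gentle touch. The DP subset (double-positive, IB4+GINIP+) stands for Mrgprd+ nociceptors, and the DN subset (double-negative, IB4-GINIP-) for cells negative for both. Each subset has 2 libraries, 6 in all. The genotype is the same in the 3 subsets, the labels give neither age nor strain, and replicates are numbered without a statement that they came from separate animals. P-values therefore measure only the spread between these libraries, which may be technical.

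BMPs are secreted dimers of the TGF-beta superfamily. They bring together type I receptors such as Bmpr1a (ALK3) and Bmpr1b (ALK6) with type II receptors such as Bmpr2, and the activated type I receptor phosphorylates Smad1, Smad5 and Smad9, which enter the nucleus with Smad4 and switch on targets such as the Id genes. Bmp15 is best known as a growth factor of the oocyte, encoded on the X chromosome, that acts on granulosa cells together with its close relative Gdf9. In the nervous system BMPs are known for dorsal patterning of the neural tube and for growth and survival of peripheral neurons.

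Sequences just upstream of 3 of the genes are printed because the levels of these genes took 3 different forms across the subsets: Bmp15 was high in C-LTMR libraries, Bmp4 in DN libraries, and Bmpr1a was of similar level in the 3 subsets. Each is the 250 bases before a gene start as the RefSeq-based promoter table (GRCm38.p6) gives it, written 5′ to 3′ on the minus strand, on which all 3 genes lie, with CpG dinucleotides in capitals. The windows are chrX:6320725-6320974 for Bmp15, chr14:46390670-46390919 for Bmp4 and chr14:34502547-34502796 for Bmpr1a. The RefSeq gene interval of Bmpr1a runs on to 34503336, so its window lies before a start inside that interval.
Bmp15: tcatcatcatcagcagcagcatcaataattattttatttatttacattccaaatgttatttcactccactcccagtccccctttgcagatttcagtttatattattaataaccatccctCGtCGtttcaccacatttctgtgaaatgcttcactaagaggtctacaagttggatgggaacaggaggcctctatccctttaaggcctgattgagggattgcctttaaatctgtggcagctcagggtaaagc
Bmp4: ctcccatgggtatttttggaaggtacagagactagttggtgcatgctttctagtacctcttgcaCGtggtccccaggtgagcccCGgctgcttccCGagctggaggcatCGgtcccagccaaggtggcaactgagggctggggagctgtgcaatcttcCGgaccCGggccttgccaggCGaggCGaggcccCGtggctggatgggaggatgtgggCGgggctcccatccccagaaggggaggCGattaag
Bmpr1a: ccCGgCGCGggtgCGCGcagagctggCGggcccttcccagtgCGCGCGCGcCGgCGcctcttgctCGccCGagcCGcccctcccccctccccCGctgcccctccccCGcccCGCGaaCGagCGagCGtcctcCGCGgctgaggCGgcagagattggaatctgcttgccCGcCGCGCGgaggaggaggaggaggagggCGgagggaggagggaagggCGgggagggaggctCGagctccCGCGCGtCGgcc

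The window of Bmp15 holds 2 CpG dinucleotides and has a GC content of 40.4%, against a median of 6 CpG and 52.4% GC over 32851 mouse promoter windows of the same length. Of these windows, 13.3% have a GC content at or below that of Bmp15. Bmp4 has 11 CpG and 63.2% GC, and Bmpr1a has 36 CpG and 78.8% GC. Of the 9 genes, 7 had a RefSeq window, and Bmp2 and Bmp7 did not. On either strand, the Bmp15 window holds 1 match to TGTGGT (the Runx core; 14.0% of all windows hold one), 122 bases before the start. It also holds 1 match to TAATTA (a homeodomain core; 4.84% of windows) and 1 to CANNTG (an E-box; 66.2% of windows). GGCGCC, a GC-type SMAD element, is found in 9.59% of all windows and once in those of Bmpr1a and Bmpr2. A match of letters is a description and does not show binding.

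The labelled subsets were checked against marker genes. Of 7 C-LTMR markers in the table, 6 were higher in C-LTMR than in DP and 7 of 7 higher in C-LTMR than in DN (limma, Benjamini-Hochberg or BH-adjusted p under 0.05 with a log2 fold change of 1 or more in size). Of all tested genes, 8.52% and 8.58% were. Of 8 Mrgprd nociceptor markers, which include Gfra2 as the C-LTMR list does, 7 were lower in C-LTMR than in DP (6.65% of all tested genes). All 8 were higher in DP than in DN (7.75% of all tested genes). Mrgprd itself was at 1.32 and 2.01 RPKM in C-LTMR libraries, 220 and 277 RPKM in DP libraries and 0.345 and 0.953 RPKM in DN libraries. Summed RPKM of 9 endothelial markers was 0.362 to 0.672 in C-LTMR, 2.57 to 4.73 in DP and 328 to 573 in DN. Satellite glia and Schwann cell markers (12 genes) summed to 2374 to 3271 in C-LTMR, 1269 to 1762 in DP and 8826 to 18462 in DN, and pericyte and fibroblast markers (10 genes) to 7.22 to 10.7, 22.5 to 24.5 and 327 to 471. Immune markers (9 genes) summed to 1.16 to 1.54 in C-LTMR, 165 to 175 in DP and 34.6 to 55.9 in DN. Pan-sensory-neuron genes (18) summed to 10623 to 11372 in C-LTMR, 10892 to 11274 in DP and 7408 to 10082 in DN. Endothelial, glial and fibroblast markers were thus highest in DN. Depth was estimated from the steps of low RPKM values at 34.1 and 32.1 M reads (C-LTMR), 41.8 and 38.1 M (DP) and 38.7 and 32.1 M (DN), and replicates of a subset correlated at r = 0.988 to 0.995 over genes on the log2 scale.

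Bmp15 (Entrez 12155, GRCm38 chromosome X, 6314106 to 6320723) was at 12.7 and 11.5 RPKM in C-LTMR libraries, at 0.535 and 0.818 RPKM in DP libraries and at 0.0921 and 0.192 RPKM in DN libraries. Both C-LTMR libraries were far above the other 4, both DP libraries were above both DN libraries, and no group overlapped another. The means were 12.1 ± 0.826 RPKM in C-LTMR, 0.677 ± 0.20 RPKM in DP and 0.142 ± 0.0708 RPKM in DN (SD, n = 2 each). The mean in C-LTMR was 17.9 times that in DP and 85.0 times that in DN, and the mean in DP was 4.76 times that in DN. On the log2(RPKM + 0.1) scale, on which changes of low genes come out too small, the differences were 3.99 (C-LTMR over DP), 5.68 (C-LTMR over DN) and 1.69 (DP over DN). In bulk samples, fewer cells that express a gene and less RNA per cell cannot be told apart.

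The depth behind these levels differs by subset. With the length of the 2 Bmp15 exons in GENCODE M21 (6320042 to 6320721 and 6314107 to 6316486, minus strand), the RPKM values stand for about 1322 and 1129 reads in C-LTMR libraries, 68.5 and 95.4 reads in DP libraries and 10.9 and 18.9 reads in DN libraries. A count of 3 reads would be listed at 0.0235 to 0.0305 RPKM, so Bmp15 was above that floor in every library, DN included. Such a floor covers counting error alone, as amplified RNA was read without molecular identifiers. Among all genes of the table, the mean of Bmp15 ranked 4962 from the top in C-LTMR, with 78.5% of genes below it. In DP, 50.9% of genes were below it, and in DN 36.2%. The second deposited table, of TMM-normalized values, gave Bmp15 as 1367 and 1245 in C-LTMR, 59.9 and 91.0 in DP and 9.90 and 21.8 in DN, the same order with no overlap.

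**Figure D1:**
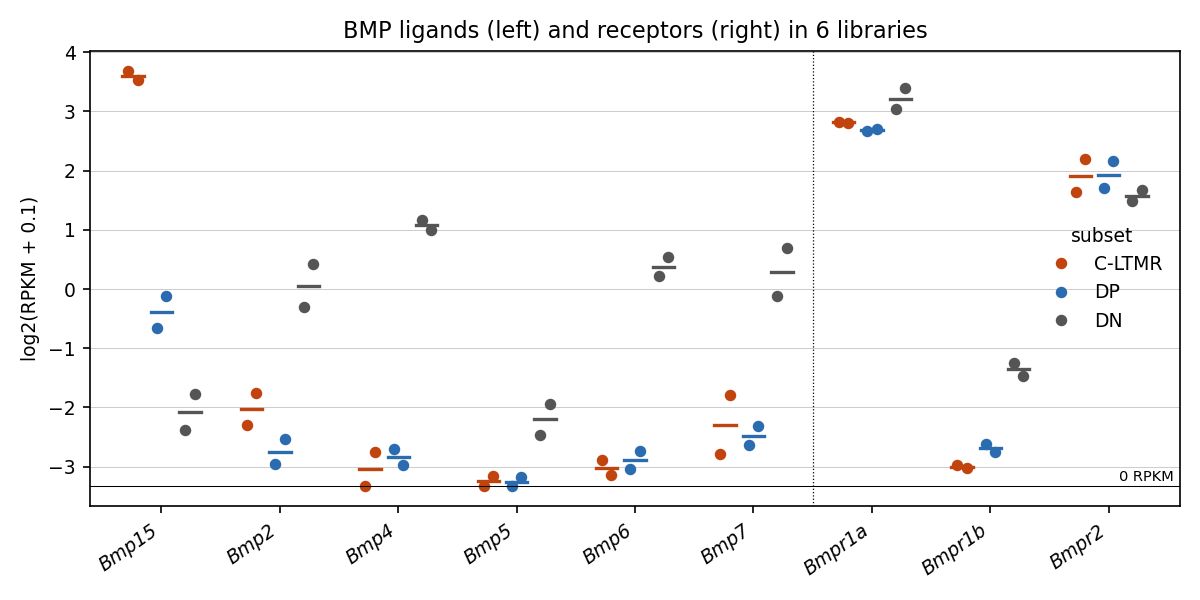
Level of each of the 9 genes in each library as log2(RPKM + 0.1), with ligands left and receptors right of the dotted line; points are libraries (2 per subset), short lines are the subset means, and the solid line marks 0 RPKM. Bmp15 is the ligand whose C-LTMR points (12.7 and 11.5 RPKM) are the highest, the other 5 ligands are highest in DN, and Bmpr1a and Bmpr2 lie close together in the 3 subsets.

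Genes that sit beside Bmp15 on chromosome X did not share its levels. The table places 8 genes, Bmp15 included, within 500 kb. Nudt10, a phosphohydrolase of inositol pyrophosphates 141.1 kb away, averaged 8.20 RPKM in C-LTMR, 5.98 RPKM in DP and 12.2 RPKM in DN. Its near copy Nudt11, 259.4 kb away, averaged 12.5 RPKM in C-LTMR, 10.9 RPKM in DP and 17.0 RPKM in DN. Both were highest in DN, and reads of such close paralogs can be assigned to either. Shroom4, which encodes a regulator of the actin cytoskeleton 79.4 kb on the other side, was at 0.0260 RPKM or less in every library. AU022751 reached 0.0116 RPKM in 1 DN library and 5430428K19Rik 0.0263 RPKM in 1 DP library, and both were listed at 0 in the others. Gm14351 and Gm10921, whose listed intervals span Bmp15, were listed at 0 throughout. Past the 500 kb limit, Dgkk, a diacylglycerol kinase gene 552.8 kb away that was chosen after its values were seen, was at 5.72 and 6.41 RPKM in C-LTMR libraries, 0.341 and 0.393 RPKM in DP libraries and 0.132 and 0.0817 RPKM in DN libraries.

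**Figure D2:**
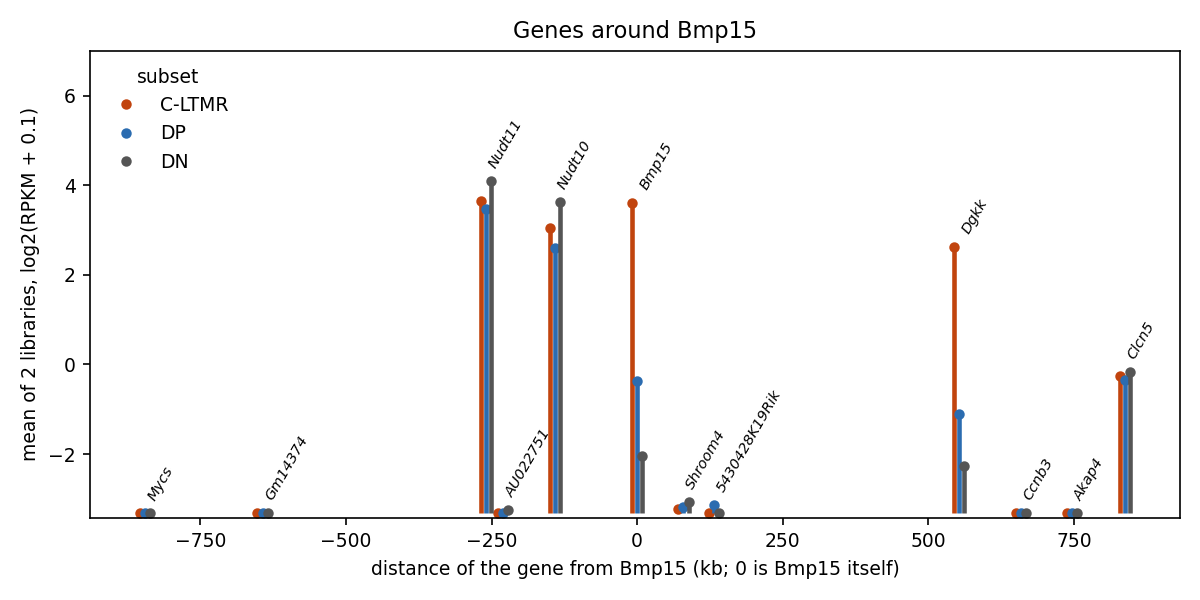
Mean level of genes in the region around Bmp15 as log2(RPKM + 0.1) (vertical axis, which starts at 0 RPKM) against distance from Bmp15 in kb (horizontal axis); stems are means of 2 libraries for C-LTMR, DP and DN, set slightly apart. Bmp15 and Dgkk (552.8 kb away) stand highest in C-LTMR, whereas Nudt10 and Nudt11 stand highest in DN.

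The fall of Bmp15 between subsets was set beside that of genes used as C-LTMR markers, as a description. Taking the C-LTMR mean as 100%, Bmp15 was at 5.60% in DP and 1.18% in DN. Dgkk was at 6.06% and 1.76%, Th (tyrosine hydroxylase, a defining C-LTMR gene) at 5.38% and 2.23%, and Slc17a8 (the vesicular glutamate transporter VGLUT3) at 6.69% and 2.06%. These 4 genes thus had much the same DP level relative to C-LTMR. Zfp521, a zinc finger transcription factor, was at 5.52% in DP and 6.48% in DN, and the T-type calcium channel gene Cacna1i at 5.83% in DP and 0.122% in DN. Fam19a4, a secreted chemokine-like protein of C-LTMRs, was at 11.1% in DP and 0.160% in DN, while Gfra2, a neurturin co-receptor that Mrgprd neurons also use, was at 74.2% in DP. The T-type channel gene Cacna1h was at 7.24% in DP and 21.9% in DN. Summed over the 7 markers in the table, C-LTMR marker RPKM was 1491 to 1503 in C-LTMR, 216 to 223 in DP and 27.1 to 42.4 in DN, and none was listed at 0. Piezo2, the other marker listed, has no row. The part of C-LTMR cells in the DP and DN levels of Bmp15 was not tested.

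**Figure D3:**
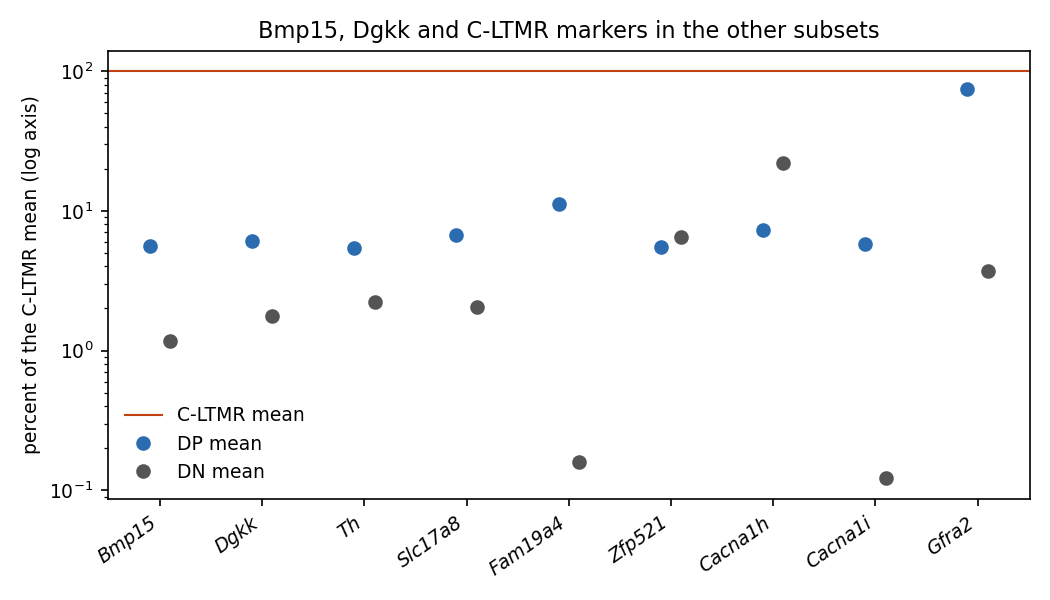
Mean RPKM in DP (left point) and DN (right point) as a percentage of the C-LTMR mean (line at 100%), on a log axis, for Bmp15, Dgkk and 7 C-LTMR markers, each mean over 2 libraries. In DP, Bmp15 (5.60%) lies among Dgkk, Th, Slc17a8, Zfp521 and Cacna1i, and Gfra2 (74.2%) lies apart.

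Genes with the profile most like Bmp15 were ranked by Pearson's r on log2(RPKM + 0.1) over the 6 libraries, among 10797 genes with a mean of at least 1 RPKM in C-LTMR. This measure uses 3 groups of 2 libraries and ignores the size of a change, and 39 genes reached an r above 0.99. Zfp389 came first (r = 0.999), with a mean of 1.17 RPKM in C-LTMR, 0.669 RPKM in DP and 0.513 RPKM in DN. It was followed by Myoz2, which encodes a calcineurin-binding protein of striated muscle (r = 0.998; 2.18 RPKM in C-LTMR, 0.162 RPKM in DP, 0.0269 RPKM in DN). Msra, a methionine sulfoxide reductase, spanned only 12.4 RPKM in C-LTMR to 7.90 RPKM in DN, and Zfc3h1 3.15 to 2.56 RPKM. Others of the 8 leading genes differed more between subsets. Spink2, a serine protease inhibitor, averaged 42.6 RPKM in C-LTMR, 2.66 RPKM in DP and 1.12 RPKM in DN. The fructose bisphosphatase gene Fbp2 averaged 31.5 RPKM in C-LTMR, 3.23 RPKM in DP and 1.12 RPKM in DN. Kcnd3, a subunit of A-type potassium channels, averaged 2.06 RPKM in C-LTMR, 0.308 RPKM in DP and 0.0709 RPKM in DN. Gpr119, a receptor for lipid amides that also lies on chromosome X, averaged 3.75 RPKM in C-LTMR, 0.428 RPKM in DP and 0.168 RPKM in DN. Dgkk ranked 48 (r = 0.989).

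Most genes known from oocytes were low in the 3 subsets. Zp1, Zp2, Oosp1 and Nobox, which oocytes express for their coat and their development, were listed at 0 in 6 of 6 libraries. Summed RPKM of the 17 oocyte genes in the table was 2.09 to 2.40 in C-LTMR, 2.51 to 3.49 in DP and 1.58 to 2.31 in DN, below the level of Bmp15 alone in C-LTMR. Gdf9, the partner of Bmp15 in the ovary, was at 0.778 and 0.771 RPKM in C-LTMR libraries, 0.435 and 0.405 RPKM in DP libraries and 0.839 and 0.721 RPKM in DN libraries. Its C-LTMR and DN libraries overlap, and its log2 fold change was 0.75 (C-LTMR over DP; SE 0.18, limma's BH-adjusted p = 0.0238) and -0.01 (C-LTMR over DN; SE 0.18, limma's BH-adjusted p = 0.980). Zar1, a maternal RNA-binding protein, was at 0.153 and 0.257 RPKM in C-LTMR libraries and at 0.0377 and 0 RPKM in DP libraries, and was called higher in C-LTMR (log2 fold change 1.36, SE 0.34, limma's BH-adjusted p = 0.0253). That call was lost without any 1 of the 4 C-LTMR and DP libraries (limma's BH-adjusted p = 0.0511 to 0.144). Zp3, a zona pellucida gene, was at 0.0887 and 0.0470 RPKM in C-LTMR libraries, 1.44 and 0.904 RPKM in DP libraries and 0.0390 and 0.0235 RPKM in DN libraries, so it was highest in the subset in which Bmp15 was intermediate (log2 fold change -2.90 for C-LTMR over DP, SE 0.28, limma's BH-adjusted p = 0.000534; 3.25 for DP over DN, SE 0.28, limma's BH-adjusted p = 0.000132). The germ cell genes Ddx4, Npm2, Dazl and Mos were at 0.551 RPKM or less in every library and were called in none of the 3 comparisons. H1foo, an oocyte linker histone, passed the filter only through the DN libraries, at 0.147 and 0.111 RPKM, so it had to differ from DN and no test is given for it.

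The other 5 ligands were highest in DN. Bmp4 (Entrez 12159, chromosome 14, 46383607 to 46390599), a ligand of many tissues including vessel walls and skin, was at 0 and 0.0487 RPKM in C-LTMR libraries, 0.0537 and 0.0274 RPKM in DP libraries and 2.13 and 1.91 RPKM in DN libraries. A count of 3 reads corresponds to 0.0348 to 0.0453 RPKM for Bmp4, so that its C-LTMR and DP values rest on fewer than 5 reads each, whereas its DN values rest on about 170 and 126 reads. Bmp4 passed the filter only through the DN libraries, so it had to differ from DN and no test is given for it. As a description, the log2 fold change was -4.12 (C-LTMR over DN) and -3.92 (DP over DN). With 0.01 or 1 RPKM added in place of 0.1, the same fold changes ran from -6.39 to -1.56 (C-LTMR over DN) and from -5.38 to -1.54 (DP over DN), so their size depends on the value added.

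Bmp6 (Entrez 12161, chromosome 13, 38345716 to 38499728), known from endothelial cells of the liver as a regulator of iron balance, was at 0.0350 and 0.0130 RPKM in C-LTMR libraries, 0.0222 and 0.0498 RPKM in DP libraries and 1.06 and 1.35 RPKM in DN libraries. Both DN libraries were above the other 4, and the C-LTMR and DP libraries overlapped, at levels that stand for 1.5 to 6.8 reads. Bmp6 too passed the filter only through DN and had to differ from it. Its log2 fold change, given without a test, was -3.40 (C-LTMR over DN) and -3.26 (DP over DN).

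Bmp2 (Entrez 12156, chromosome 2, 133553199 to 133562885), the closest relative of Bmp4, was at 0.104 and 0.197 RPKM in C-LTMR libraries, 0.0284 and 0.0726 RPKM in DP libraries and 0.708 and 1.24 RPKM in DN libraries. The 3 subsets did not overlap. Its log2 fold change was -2.08 (C-LTMR over DN; SE 0.34, limma's BH-adjusted p = 0.0021) and -2.81 (DP over DN; SE 0.34, limma's BH-adjusted p = 0.000543), and the difference of 0.73 between C-LTMR and DP (SE 0.34) did not pass (limma's BH-adjusted p = 0.162).

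Bmp7 (Entrez 12162, chromosome 2, 172869687 to 172940293), which is needed for kidney and eye development, was at 0.0446 and 0.189 RPKM in C-LTMR libraries, 0.0604 and 0.101 RPKM in DP libraries and 0.824 and 1.52 RPKM in DN libraries. The C-LTMR and DP libraries overlapped and all 4 were below both DN libraries. Its log2 fold change was -2.58 (C-LTMR over DN; SE 0.41, limma's BH-adjusted p = 0.00198) and -2.77 (DP over DN; SE 0.41, limma's BH-adjusted p = 0.0014). Bmp5 (Entrez 12160, chromosome 9, 75775365 to 75899017), a relative of Bmp6 and Bmp7, was at 0 and 0.0123 RPKM in C-LTMR libraries, 0 and 0.0103 RPKM in DP libraries and 0.0822 and 0.159 RPKM in DN libraries. Only 1 of its libraries reached 0.1 RPKM, so it did not pass the filter and was not tested.

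Receptor levels were spread differently. Bmpr1a (Entrez 12166, chromosome 14, 34411068 to 34502546), the widely expressed type I receptor, was at 6.96 and 6.89 RPKM in C-LTMR libraries, 6.23 and 6.45 RPKM in DP libraries and 8.11 and 10.4 RPKM in DN libraries. Its subsets did not overlap, but the differences were small. The log2 fold change was 0.13 (C-LTMR over DP; SE 0.14, limma's BH-adjusted p = 0.554), -0.40 (C-LTMR over DN; SE 0.14, limma's BH-adjusted p = 0.0439) and -0.53 (DP over DN; SE 0.14, limma's BH-adjusted p = 0.0155), below the fold threshold of 1 in each. With libraries rescaled to pan-sensory-neuron genes, it came to -1.10 for C-LTMR over DN (limma's BH-adjusted p = 0.011), which passes.

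Bmpr2 (Entrez 12168, chromosome 1, 59764637 to 59870859), the type II receptor whose loss causes hereditary pulmonary arterial hypertension in humans, was at 3.01 and 4.48 RPKM in C-LTMR libraries, 3.15 and 4.36 RPKM in DP libraries and 2.71 and 3.08 RPKM in DN libraries. The C-LTMR libraries overlapped those of DP and of DN, and both DP libraries were just above both DN libraries. Its log2 fold change was -0.01 (C-LTMR over DP; SE 0.24, limma's BH-adjusted p = 0.979), 0.34 (C-LTMR over DN; SE 0.24, limma's BH-adjusted p = 0.265) and 0.35 (DP over DN; SE 0.24, limma's BH-adjusted p = 0.244).

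Bmpr1b (Entrez 12167, chromosome 3, 141837136 to 141982251), the type I receptor through which BMP15 acts on ovarian granulosa cells, was at 0.0274 and 0.0232 RPKM in C-LTMR libraries, 0.0624 and 0.0489 RPKM in DP libraries and 0.322 and 0.261 RPKM in DN libraries. Both C-LTMR libraries, which had the highest Bmp15, had the lowest Bmpr1b, at about 5.0 and 4.0 reads. Bmpr1b passed the filter only through DN and had to differ from it. Its log2 fold change, given without a test, was -1.64 (C-LTMR over DN) and -1.33 (DP over DN). After quantile normalization the fold changes were -0.74 and -0.58, below the threshold.

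Between C-LTMR and DP, limma called 0 of the 7 tested genes other than Bmp15, where 15.2% of all 15544 tested genes were called, and 0 of the 7 had an unadjusted p under 0.05. The 8 genes other than Bmp15 had 7 that reached 0.1 RPKM in at least 2 libraries, and of these Bmp4, Bmp6 and Bmpr1b did so only through the DN libraries. Those 3 therefore had to differ from DN, and their calls carry no weight as a count. They stood at 0 to 13.9 estimated reads in C-LTMR and DP libraries, so their lack of a call between those subsets says little. The 4 that passed without the DN libraries also had 0 calls between C-LTMR and DP. Of all genes that passed so, 9.2% were higher and 7.09% lower in C-LTMR than in DP. Of the 4 that passed without the DN libraries, Bmp2 and Bmp7 were called lower in C-LTMR than in DN, where 23.5% of all tested genes were lower and 8.58% higher (32.1% called either way), and both were called lower in DP than in DN, where 25.5% were lower and 7.75% higher (33.3% either way). Over the 14396 tested genes that passed without the DN libraries, 19.2% were lower and 9.27% higher in C-LTMR than in DN, and 21.4% lower and 8.37% higher in DP than in DN, with medians of -0.04 and -0.14. The counts of gene lists against DN given further on are set beside these shares and leave out genes that passed only through DN. The C-LTMR over DN and DP over DN comparisons share the DN libraries. The median log2 fold change of all tested genes was 0.05 (C-LTMR over DP), -0.10 (C-LTMR over DN) and -0.20 (DP over DN).

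Most endothelial, glial and fibroblast markers were lower in C-LTMR and DP than in DN, as the ligands other than Bmp15 were, whereas summed immune markers were highest in DP. Among markers that passed without the DN libraries, 5 of 5 endothelial genes were called lower in C-LTMR and in DP than in DN, as were 10 of 11 satellite glia and Schwann cell genes in either comparison and 8 (C-LTMR) and 7 (DP) of 9 pericyte and fibroblast genes. Of those 9, 1 was called higher in C-LTMR than in DN. Of all genes that passed so, 19.2% were lower and 9.27% higher in C-LTMR than in DN, and 21.4% lower and 8.37% higher in DP than in DN. Of 8 immune genes, 4 were lower and 0 higher in C-LTMR than in DN, and 2 were lower and 2 higher in DP than in DN. The pericyte gene Kcnj8 was listed at 0 in both C-LTMR libraries and the endothelial gene Emcn in 1 of them, and no other endothelial, glial, pericyte or fibroblast marker was at 0. The 5 peptidergic neuron markers that passed without DN were lower too, with the 6 on the list summing to 1233 to 1317 RPKM in C-LTMR and 812 to 914 RPKM in DP, against 7823 to 8632 RPKM in DN. The part of these cell types in the DN levels of Bmp2, Bmp4, Bmp5, Bmp6, Bmp7 and Bmpr1b was not tested.

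Extracellular antagonists bind ligands and keep them from receptors. The list used here, called antagonists for short, also holds modulators and follistatin-like genes such as Fstl4 and Fstl5. Whether these bind BMPs was not tested. The list included genes that followed the C-LTMR subset. The list holds 20 genes, of which 16 passed the filter (14 without the DN libraries). Between C-LTMR and DP, 4 were higher (25.0% of the 16, against 8.52% of all tested genes) and 0 lower, with a median log2 fold change of 0.43 over the 16, against 0.05 over all. Fst, encoding follistatin, a binding protein of activins that also binds several BMPs, was at 9.11 and 8.81 RPKM in C-LTMR libraries, 0.915 and 1.17 RPKM in DP libraries and 0.827 and 1.76 RPKM in DN libraries. Its C-LTMR libraries stood far above the other 4, which overlapped. The log2 fold change was 3.0 (C-LTMR over DP; SE 0.32, limma's BH-adjusted p = 0.000823) and 2.78 (C-LTMR over DN; SE 0.32, limma's BH-adjusted p = 0.000456).

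Fstl4, a follistatin-like gene, was at 3.35 and 3.37 RPKM in C-LTMR libraries, 0.137 and 0.385 RPKM in DP libraries and 0.286 and 0.129 RPKM in DN libraries. It was higher in C-LTMR by a log2 fold change of 3.35 over DP (SE 0.39, limma's BH-adjusted p = 0.00121) and 3.54 over DN (SE 0.39, limma's BH-adjusted p = 0.000382). Fstl5, another of that family, was at 1.82 and 1.56 RPKM in C-LTMR libraries, 0.288 and 0.368 RPKM in DP libraries and 1.30 and 0.869 RPKM in DN libraries, with C-LTMR over DP at 2.07 (SE 0.24, limma's BH-adjusted p = 0.00117).

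Against DN, 6 of the 14 antagonists that passed without DN were higher in C-LTMR and 4 lower (42.9% and 28.6%, against 9.27% and 19.2% of such genes), and 3 were higher and 4 lower in DP (21.4% and 28.6%, against 8.37% and 21.4%). The medians over the 14 were 0.18 and -0.28, against -0.04 and -0.14. With Chrd and Chrdl1, which passed only through DN, the median for C-LTMR over DN was -0.26 over the 16, so its sign rests on them. Nbl1 (DAN), a secreted antagonist of the cystine-knot family, was the most abundant antagonist with a call: 307 and 273 RPKM in C-LTMR libraries, 158 and 146 RPKM in DP libraries and 47.4 and 37.2 RPKM in DN libraries. It was higher than in DN by 2.78 in C-LTMR (SE 0.13, limma's BH-adjusted p = 1.47e-05) and 1.85 in DP (SE 0.13, limma's BH-adjusted p = 6.42e-05) on the log2 scale. Nog, the classical antagonist noggin, was highest in DP, with 2.48 and 2.25 RPKM in C-LTMR libraries, 3.90 and 4.75 RPKM in DP libraries and 0.867 and 0.725 RPKM in DN libraries (log2 fold change 2.30 for DP over DN, SE 0.17, limma's BH-adjusted p = 7.87e-05).

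Other antagonists were lower in both GINIP+ subsets than in DN. Sostdc1, which binds BMPs and Wnt co-receptors, was at 5.87 and 14.5 RPKM in C-LTMR libraries, 5.90 and 8.43 RPKM in DP libraries and 63.6 and 150 RPKM in DN libraries (log2 fold changes -3.39 and -3.77, SE 0.52; limma's BH-adjusted p = 0.00164 and 0.000989). Chrdl1, a chordin-like antagonist of BMP4 that passed the filter only through DN, was at 0.00863 and 0.00457 RPKM in C-LTMR libraries, 0.0140 and 0.0116 RPKM in DP libraries and 0.647 and 0.791 RPKM in DN libraries. Fstl1, a secreted follistatin-like protein that was abundant throughout, was at 646 and 600 RPKM in C-LTMR libraries, 972 and 1023 RPKM in DP libraries and 1266 and 1137 RPKM in DN libraries, and was not called.

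**Figure D4:**
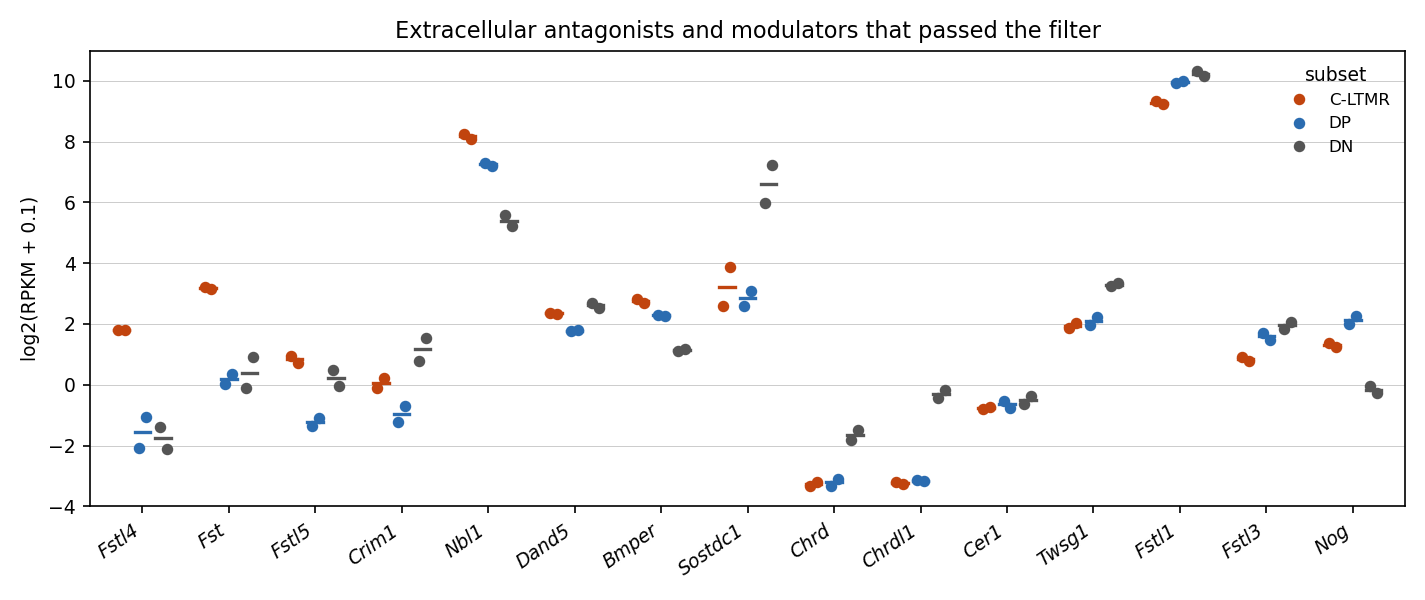
Level of 15 of the 16 antagonists that passed the filter in each library as log2(RPKM + 0.1); points are libraries, 2 per subset, and short lines are subset means. Fstl4 and Fst stand highest in C-LTMR, Nbl1 steps down over C-LTMR, DP and DN, Nog is highest in DP, and Sostdc1 and Chrdl1 are highest in DN.

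Genes known as BMP targets in other tissues were compared next. Of 13 genes, 11 passed the filter (9 without the DN libraries). In C-LTMR, 1 of the 11 was higher than in DP and 0 lower, with a median of -0.06. That is 9.09% higher, near the 8.52% of all tested genes, of which 6.65% were lower. Over the 9, 1 was higher and 7 lower in C-LTMR than in DN (77.8% lower, against 19.2% of such genes, with a median of -2.38). In DP, 7 of the 9 were lower than in DN (77.8%, against 21.4%; median -1.90). Msx1 and Atoh8 passed only through DN and are left out of these counts. Smad6 and Smad7 are also on the list of SMADs and Bambi on that of co-receptors, so the counts of these lists against DN overlap. Id1, an inhibitor of basic helix-loop-helix factors and the most used readout of BMP signalling, was at 19.2 and 22.0 RPKM in C-LTMR libraries, 19.8 and 23.3 RPKM in DP libraries and 129 and 226 RPKM in DN libraries. The C-LTMR and DP libraries overlapped, below both DN libraries (log2 fold change -3.05 for C-LTMR over DN and -2.99 for DP over DN, SE 0.25; limma's BH-adjusted p = 0.000103 and 0.000115).

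Id3 was at 49.5 and 68.5 RPKM in C-LTMR libraries, 55.6 and 75.2 RPKM in DP libraries and 266 and 553 RPKM in DN libraries (log2 fold changes -2.72 and -2.57, SE 0.35; limma's BH-adjusted p = 0.000724 and 0.000918). Smad6, an inhibitory SMAD induced by BMPs, was at 0.293 and 0.228 RPKM in C-LTMR libraries, 0.168 and 0.242 RPKM in DP libraries and 1.89 and 1.74 RPKM in DN libraries. Atoh8, a helix-loop-helix factor of vessels and liver, was at 0.0124 and 0.0526 RPKM in C-LTMR libraries, 0.0706 and 0.0111 RPKM in DP libraries and 1.96 and 4.16 RPKM in DN libraries. Msx1, a homeobox gene, was listed at 0 in both C-LTMR libraries and was at 0.00509 and 0.0486 RPKM in DP libraries and at 0.509 and 1.01 RPKM in DN libraries.

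Id4 went another way. It was at 133 and 131 RPKM in C-LTMR libraries, 24.8 and 29.9 RPKM in DP libraries and 39.6 and 52.0 RPKM in DN libraries, with no overlap between subsets. Its log2 fold change was 2.27 (C-LTMR over DP; SE 0.15, limma's BH-adjusted p = 0.000135) and 1.54 (C-LTMR over DN; SE 0.15, limma's BH-adjusted p = 0.000222). With libraries rescaled to pan-sensory-neuron genes, the second became 0.84 (limma's BH-adjusted p = 0.0313), below the fold threshold. The part of endothelial, glial and fibroblast cells, whose markers were highest in DN, in the levels of the other targets was not tested.

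**Figure D5:**
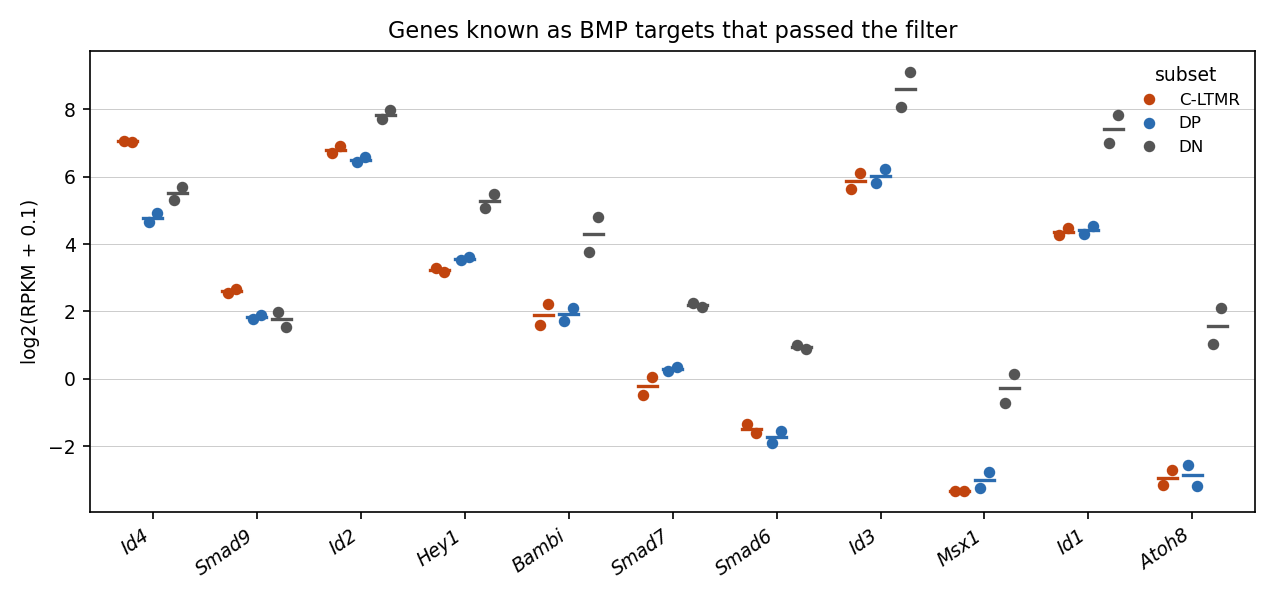
Level of the 11 genes known as BMP targets that passed the filter in each library as log2(RPKM + 0.1); points are libraries, 2 per subset, and short lines are subset means. Id4 is highest in C-LTMR (133 and 131 RPKM), and Id1, Id3, Hey1, Smad6, Smad7, Msx1 and Atoh8 are highest in DN.

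The SMADs that carry the signal were present in the 3 subsets, and Smad5 was lower in both GINIP+ subsets than in DN. Smad1 was at 29.6 and 28.0 RPKM in C-LTMR libraries, 30.5 and 29.4 RPKM in DP libraries and 42.8 and 38.4 RPKM in DN libraries. Smad4, the common partner, was at 23.6 and 24.2 RPKM in C-LTMR libraries, 28.5 and 32.5 RPKM in DP libraries and 28.1 and 28.2 RPKM in DN libraries, and neither gene was called in any comparison. Smad5 was at 2.15 and 2.70 RPKM in C-LTMR libraries, 1.795 and 1.925 RPKM in DP libraries and 5.63 and 6.31 RPKM in DN libraries. The log2 fold change was -1.27 (C-LTMR over DN; SE 0.16, limma's BH-adjusted p = 0.000683) and -1.63 (DP over DN; SE 0.16, limma's BH-adjusted p = 0.000227), and after quantile normalization the first was -0.93, below the fold threshold. Smad9 was at 5.71 and 6.22 RPKM in C-LTMR libraries, 3.32 and 3.61 RPKM in DP libraries and 3.83 and 2.83 RPKM in DN libraries, and was not called. Of the 15 SMADs and intracellular regulators, which all passed the filter (14 without DN), 1 was lower in C-LTMR than in DP (6.67%, against 6.65% of all genes). This was Zeb2, a SMAD-binding repressor, at 0.296 and 0.575 RPKM in C-LTMR libraries, 1.23 and 1.55 RPKM in DP libraries and 7.95 and 8.94 RPKM in DN libraries, and without DP replicate 2 the C-LTMR over DP call was lost (limma's BH-adjusted p = 0.0525). Against DN, 5 of the 14 were lower in C-LTMR and 5 in DP (35.7% each, against 19.2% and 21.4%), with medians of -0.61 and -0.62. Smad3, which serves TGF-beta and activin and passed only through DN, was at 0.0402 and 0.0487 RPKM in C-LTMR libraries, 0.107 and 0.0667 RPKM in DP libraries and 0.519 and 0.803 RPKM in DN libraries.

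Other receptors of the superfamily gave 8 genes of 9 past the filter. Acvr1 (ALK2), a further type I receptor for BMPs, was at 5.24 and 5.07 RPKM in C-LTMR libraries, 3.86 and 4.33 RPKM in DP libraries and 5.86 and 7.39 RPKM in DN libraries. It was not called, as its largest log2 fold change, -0.67 for DP over DN (SE 0.15, limma's BH-adjusted p = 0.00752), was below the fold threshold. Acvr2b, an activin type II receptor that BMPs also use, was at 5.36 and 5.78 RPKM in C-LTMR libraries, 2.56 and 2.97 RPKM in DP libraries and 5.57 and 5.66 RPKM in DN libraries. It fell just short of the fold threshold of 1 and was not called either. Its log2 fold change was 0.986 (C-LTMR over DP, SE 0.13, limma's BH-adjusted p = 0.00195) and -0.997 (DP over DN, SE 0.13, limma's BH-adjusted p = 0.000758). Against DN, 3 of the 8 were lower in C-LTMR and 5 in DP (37.5% and 62.5%, against 19.2% and 21.4%), with medians of -0.79 and -1.17. They were led by Acvrl1 (ALK1), the endothelial receptor for BMP9 and BMP10, at 0.0322 and 0.0171 RPKM in C-LTMR libraries, 0.623 and 0.472 RPKM in DP libraries and 9.16 and 14.3 RPKM in DN libraries. Its log2 fold change was -2.37 (C-LTMR over DP; SE 0.26, limma's BH-adjusted p = 0.000951), -6.54 (C-LTMR over DN; SE 0.26, limma's BH-adjusted p = 8.84e-06) and -4.17 (DP over DN; SE 0.26, limma's BH-adjusted p = 3.94e-05). Both C-LTMR values of Acvrl1 were below the 0.1 RPKM added, so the size of its changes from C-LTMR depends on the value added. With 1 RPKM added, its C-LTMR over DP change was -0.59 and the call was lost (limma's BH-adjusted p = 0.0711).

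The second gene called between C-LTMR and DP was Tgfbr2, the TGF-beta type II receptor, at 0.207 and 0.356 RPKM in C-LTMR libraries, 0.898 and 0.736 RPKM in DP libraries and 7.72 and 12.0 RPKM in DN libraries. Its C-LTMR over DP call (log2 fold change -1.29, SE 0.29, limma's BH-adjusted p = 0.0172) was lost without C-LTMR replicate 1, DP replicate 1 or DP replicate 2 (limma's BH-adjusted p = 0.0836, 0.105 and 0.0568). In DP, the calls of Amhr2 (lost without DP replicate 1, limma's BH-adjusted p = 0.1) and Acvr2a (log2 fold change -0.78 without DN replicate 2) against DN also rested on single libraries. Among markers that passed without DN, 4 of 5 endothelial and 6 of 8 immune genes were lower in C-LTMR than in DP. Of all genes that passed so, 7.09% were. The part of these cell types in the Acvrl1 and Tgfbr2 levels was not tested.

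Of the co-receptors, Rgmb (Dragon), which binds BMP2 and BMP4 and is known from dorsal root ganglion neurons, was at 32.6 and 30.9 RPKM in C-LTMR libraries, 32.5 and 33.3 RPKM in DP libraries and 23.6 and 20.8 RPKM in DN libraries. Its log2 fold changes over DN, 0.52 in C-LTMR and 0.57 in DP (SE 0.09, limma's BH-adjusted p = 0.00358 and 0.00225), were below the fold threshold, so it was not called. Eng (endoglin), a co-receptor of vessel walls, was at 0.160 and 0.127 RPKM in C-LTMR libraries, 0.220 and 0.185 RPKM in DP libraries and 11.4 and 14.4 RPKM in DN libraries. The 6 co-receptor genes that passed had 2 lower in C-LTMR than in DP (33.3%, against 6.65% of all tested genes), namely Rgma and Tgfbr3, and both calls were lost without single libraries (highest limma's BH-adjusted p = 0.113 and 0.129). Against DN, 4 of the 6 were lower in C-LTMR and 3 in DP (66.7% and 50.0%, against 19.2% and 21.4%; medians -2.13 and -1.03).

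Of the listed enzymes that process propeptides, those other than Furin and Pcsk7 were low in the neuron subsets. Furin, the main proprotein convertase of the secretory pathway, was at 1.31 and 1.78 RPKM in C-LTMR libraries, 0.986 and 0.930 RPKM in DP libraries and 1.33 and 1.33 RPKM in DN libraries. Pcsk7, another convertase, was at 5.85 and 6.33 RPKM in C-LTMR libraries, 6.41 and 6.70 RPKM in DP libraries and 4.65 and 4.42 RPKM in DN libraries. Neither was called. Of the 6 enzymes that passed the filter, limma called 0 between C-LTMR and DP, where 15.2% of all tested genes were called. In that comparison, 2 of the 6 had an unadjusted p under 0.05. In C-LTMR and in DP, 3 of the 5 that passed without DN were lower than in DN (19.2% and 21.4% of such genes were). These were Bmp1, a metalloprotease that despite its name is no BMP ligand, Pcsk5 and Pcsk6, while Tll1 passed only through DN. Bmp1 was at 0.105 and 0.236 RPKM in C-LTMR libraries, 0.299 and 0.322 RPKM in DP libraries and 1.41 and 2.72 RPKM in DN libraries.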

How the data were processed

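Total RNA from sorted cells (50 ng, amplified with an amino allyl kit before TruSeq libraries were made, per the labels' protocols) was sequenced in 6 libraries. The authors deposited RPKM values for 23029 genes and a TMM-normalized signal for 6620 genes, which lists only Bmp15 and Bmpr1a of the 9 members. The submitters' processing notes name CASAVA 1.8.2, edgeR 2.6.2 and GRCm38 (mm10). The sources used here do not give the aligner settings, annotation, use of strand or depth.

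From the deposited RPKM, log2(RPKM + 0.1) was fitted for the 15544 genes that reached 0.1 RPKM in at least 2 libraries, in 1 limma 3.58.1 fit (R 4.3.3, eBayes with a trend, 3 residual degrees of freedom) over the 6 libraries and without a replicate block. Calls needed a p under 0.05 after Benjamini-Hochberg (BH) adjustment over all tested genes and a log2 fold change of 1 or more in size. Depth was estimated from steps of low values with GENCODE M21 lengths. Per library, 43.8% to 47.0% of the low values came within 0.05 reads of a whole number (10% by chance), so whole reads were not recovered and no count model was used. Promoter windows came from RefSeq (GRCm38.p6). Python 3.11.15, pandas 2.3.3, numpy 2.4.6 and matplotlib 3.10.9 served for summaries and plots.

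The members and gene lists were chosen with earlier results of these data known. Text names every member, up to 5 called genes per list and comparison, oocyte genes above 0.1 RPKM in 2 libraries, neighbours within 500 kb and the 8 genes most like Bmp15; others were chosen after their values were seen. The values of 1 antagonist, which stays in the counts of its list, are not reported here. The alternatives were another pseudocount, filter, scaling or table, a replicate block, the 4 libraries compared, and each library left out. Counts of lists against DN cover the 14396 genes that passed without the DN libraries, a choice made after the values were seen. The fit was tested on simulated data.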

Additional observations from a re-analysis of the deposited data

How the results depend on the processing

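The Bmp15 difference (C-LTMR over DP, log2) of 3.99 became 2.97 with 1 RPKM added and 3.65 after quantile normalization, and ran from 3.73 to 4.26 with single libraries left out. Genes called fell to 1192 (C-LTMR over DP), 3012 (C-LTMR over DN) and 3140 (DP over DN) with 1 RPKM added, against 2358, 4993 and 5172, since a larger added value shrinks low genes. The TMM-normalized table, which holds fewer genes, gave 843, 1562 and 1645. Leaving out single libraries gave 1849 to 2406, 3989 to 4985 and 4246 to 5183. The members called against DN, 5 in either comparison, were 2 with 1 RPKM added, 2 with a filter of 1 RPKM (4 tested) and 0 in the TMM-normalized table (1 tested), and 2 to 5 with single libraries left out. The low end came without either DN library, where Bmp4, Bmp6 and Bmpr1b no longer passed the filter. With the filter kept from all 6 libraries, an alternative chosen after seeing the data, 5 of 7 were called in either comparison without a DN library, and up to 5228 and 5304 genes were called against DN. Of the 5 members called against DN, Bmp4, Bmp6 and Bmpr1b had to differ from DN. With 1 RPKM added, the 2 still called were Bmp4 and Bmp6. Bmp2 (-0.77 for C-LTMR over DN, -0.90 for DP over DN) and Bmp7 (-0.94 and -0.99) then fell below the fold threshold. With the replicate block, 2442, 5018 and 5208 genes and 0, 5 and 5 members were called. Deviations of same-numbered libraries correlated at 0.286 (C-LTMR and DP), 0.23 (C-LTMR and DN) and 0.0888 (DP and DN). All were positive, and the main fit did not take the numbers as pairs. The block lowered the SE of Bmp2 (0.34 to 0.21), Bmp7 (0.41 to 0.25) and Bmpr2 (0.24 to 0.14), and slightly that of Bmpr1a. It slightly raised those of Bmp4, Bmp6 and Bmpr1b. For Bmp2, C-LTMR over DP then had limma's BH-adjusted p = 0.0469, with its log2 fold change of 0.73 below the fold threshold. Why same-numbered libraries moved together was not tested. The share of higher genes among those called moved with scaling: 56.2%, 26.7% and 23.3% became 52.8%, 49.0% and 47.7% after quantile normalization and 43.5%, 10.7% and 13.0% after rescaling to pan-sensory-neuron genes, as the median of all genes shifted to -0.01, 0.17 and 0.15, and to -0.18, -0.76 and -0.62. Of 1965 recomputed values of members and called pathway or oocyte genes, 1819 kept their direction and call, 136 lost the call, 1 gained it and 9 reversed, all 9 uncalled. For C-LTMR over DP these were Bmp4 (-0.485 to 0.0879 with single libraries left out), Bmp6 (0.0376 after quantile normalization, -0.279 to 0.0156 with single libraries left out), Bmp7 (-0.314 to 0.685 likewise), Bmpr1a (-0.13 after rescaling) and Bmpr2 (-0.292 to 0.266 with single libraries left out). Rescaling also turned Bmpr2 to -0.35 for C-LTMR over DN and -0.0776 for DP over DN. Where no construction is named, the cause was not tested. For the ligands other than Bmp15, a value of 3 reads stands at 0.0188 to 0.0453 RPKM.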

Other observations

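Other ligands of the TGF-beta superfamily were mostly low, and those with a call were mainly highest in DN. Of 26 genes in the table, 14 passed the filter (12 without the DN libraries). Between C-LTMR and DP, 1 of the 14 was higher and 1 lower (median log2 fold change -0.17). That is 7.14% each, near the 8.52% and 6.65% of all tested genes. Gdf10 (BMP3b), a divergent BMP, was at 0.373 and 0.617 RPKM in C-LTMR libraries, 0.0663 and 0 RPKM in DP libraries and 0.368 and 0.605 RPKM in DN libraries. It was higher in C-LTMR than in DP (log2 fold change 2.17, SE 0.36, limma's BH-adjusted p = 0.00539), and with no filter on low values the adjusted p was 0.0553. Gdf11, a relative of myostatin, was at 0.0645 and 0.0592 RPKM in C-LTMR libraries, 0.214 and 0.262 RPKM in DP libraries and 0.521 and 0.674 RPKM in DN libraries. Its call against DP (log2 fold change -1.06, SE 0.22, limma's BH-adjusted p = 0.0129) was lost without any 1 of the 4 C-LTMR and DP libraries (0.057 to 0.0954).

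Against DN, 7 of the 12 that passed without DN were lower in C-LTMR and 8 in DP (medians -1.54 and -1.23, against -0.04 and -0.14 over all genes that passed so, of which 19.2% and 21.4% were lower). Gdf15, a stress-induced ligand, was at 0.162 and 0.314 RPKM in C-LTMR libraries, 0.512 and 0.506 RPKM in DP libraries and 4.85 and 8.12 RPKM in DN libraries. Tgfb1, the founding TGF-beta, was at 0.201 and 0.118 RPKM in C-LTMR libraries, 0.280 and 0.340 RPKM in DP libraries and 2.48 and 3.05 RPKM in DN libraries. Bmp3, which dampens BMP signals in bone and passed the filter only through DN, was at 0 and 0.00995 RPKM in C-LTMR libraries, 0 and 0.0419 RPKM in DP libraries and 0.825 and 0.826 RPKM in DN libraries. The inhibin subunit gene Inha was at 5.16 and 5.80 RPKM in C-LTMR libraries, 3.10 and 3.80 RPKM in DP libraries and 7.14 and 5.66 RPKM in DN libraries. It was not called, as its largest log2 fold change, -0.87 for DP over DN (SE 0.17, limma's BH-adjusted p = 0.00437), was below the fold threshold. Markers of endothelial, glial and fibroblast cells were highest in DN, and their part in these levels was not tested.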
